A study of Mus musculus with 21 samples.

Results

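Transcripts of the laminins, the integrins and other basement membrane genes were followed through 21 RNA-seq libraries of mouse pluripotent cells. The genes were taken by symbol: every laminin chain (Lama, Lamb and Lamc genes), every gene named as an integrin alpha or beta chain, and Nid1, Nid2, Hspg2, Agrn, Fn1, Vtn, Sparc, Dag1, Tnc, Postn, Lum and Dcn. This gave 52 rows of the 33861 in the count table, for 51 symbols, because Itgam has 2 rows. By role they were 11 laminin chains, 6 linkers and proteoglycans of the basement membrane, 6 adhesive or matricellular glycoproteins, 19 rows of integrin alpha chains, 8 of integrin beta chains, and 2 genes (Itgbl1 and Itgb2l) that the name pattern catches but that are not among the usual receptor chains. The rule uses symbols only.

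There were 6 groups. Formative stem (FS) cells were 2 mouse lines in A3XR medium, called line 1 and line 2 here, line 1 from passages 10, 11 and 18, line 2 from 12, 13 and 16. Epiblast stem cells (EpiSCs) of the line E14 were sampled at passages 14, 15 and 16 in AF medium and at the same passages in AFX medium. Epiblasts came from embryos 1, 2 and 4 at E5.0 (embryonic day 5.0), embryos 1, 2 and 3 at E5.5 and embryos 1, 2 and 3 at E6.0. Each culture sample was lysed as 1000 cells and each epiblast on its own, for total RNA. In published work on these cells, AF stands for activin with fibroblast growth factor, X for a tankyrase inhibitor, and A3XR for low activin with that inhibitor and a retinoic acid receptor inhibitor. The labels name the media without contents and give no coating, feeder layer or library batch. FS and EpiSC samples differ in line and medium together, so those cannot be told apart, whereas AF and AFX share the line name and differ in medium. Passages of a line are not separate derivations, so p-values over cultures measure the spread between passages. Where both FS lines form 1 group, that spread also holds the difference between the lines. The epiblasts titled E6.0 carry a stage of 6.5 in another label, and are called E6.0 here.

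A basement membrane is a thin sheet of extracellular matrix under an epithelium. Laminins, secreted as heterotrimers of an alpha, a beta and a gamma chain, polymerise on the cell surface. Nidogens and perlecan join the laminin network to collagen IV, and integrin heterodimers and dystroglycan hold cells to it. In the mouse embryo at implantation, the epiblast rests on a basement membrane laid down with the visceral endoderm, and laminin signalling through beta1 integrin is known to accompany its change from a solid mass into a polarised epithelium around a lumen. Pluripotent cells in culture are commonly grown on fibronectin, laminin or feeder cells.

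Total counts ran from 5827093 to 15916800 per library, and 3 counts corresponded to 0.171 to 0.589 CPM (counts scaled to library size), the scale used for levels here. In all, 3 libraries stood apart in the genes described. Summed over all member rows, AF passage 15 held 4523 CPM against 3320.4 and 3520.00 in the other AF libraries, and FS line 2 passage 12 held 2749 CPM, the highest of the 6 FS libraries. E5.0 embryo 2 held 95.4 CPM of Lama1, against 11.5 and 11.99 in embryos 1 and 4 of that stage, and 27.7 CPM summed over 7 extraembryonic ectoderm markers, against 8.94 and 2.398. Its sum over 12 visceral endoderm markers was 945 CPM, against 769 and 327. The summed level of 8 pluripotent epiblast markers was 2548 to 3656 CPM in FS cells, 1613 to 2574 in AF EpiSCs, 2458 to 2863 in AFX EpiSCs and 4422 to 7460.5 in the epiblasts. Pou5f1, which encodes the pluripotency factor Oct4, had group means from 388 to 661 CPM.

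The upstream sequences of 5 members show the regulatory context of the genes on which the culture comparisons turn: Nid1, Tnc, Lamb1 and Itgav had the smallest adjusted p between FS cells and AF EpiSCs, and Lama5 was the main laminin alpha chain. They were chosen after these values were seen. RefSeq promoter windows on GRCm38.p6 (250 bases before to 50 after a start) covered 33 of the 51 symbols in 40 windows. Printed are the window's bases that precede both the RefSeq start and the gene's GENCODE M21 model, 5′ to 3′ on the gene's strand. Capitals mark matches, on either strand, to 4 short motifs, of general promoter elements and of 2 factor families known from matrix genes: TEAD (GGAATG), AP-1 (TGANTCA), GC box (GGGCGG) and TATA-like (TATAAN). The Nid1 stretch lies at chr13:13437352-13437550 on the plus strand, before a gene at chr13:13437551-13512269. The Lamb1 stretch lies at chr12:31265043-31265233 on the plus strand, the Itgav stretch at chr2:83724147-83724396 on the plus strand, the Lama5 stretch at chr2:180225860-180226109 on the minus strand and the Tnc stretch, before the farther of its RefSeq starts, at chr4:64047016-64047265 on the minus strand.
Nid1: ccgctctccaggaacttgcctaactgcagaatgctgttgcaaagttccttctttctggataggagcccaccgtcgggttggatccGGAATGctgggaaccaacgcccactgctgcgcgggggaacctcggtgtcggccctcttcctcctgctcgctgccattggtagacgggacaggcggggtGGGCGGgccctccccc
Lamb1: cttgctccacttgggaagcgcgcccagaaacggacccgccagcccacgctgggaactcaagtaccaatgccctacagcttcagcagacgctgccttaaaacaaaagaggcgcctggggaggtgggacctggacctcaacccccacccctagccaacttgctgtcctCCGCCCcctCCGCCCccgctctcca
Itgav: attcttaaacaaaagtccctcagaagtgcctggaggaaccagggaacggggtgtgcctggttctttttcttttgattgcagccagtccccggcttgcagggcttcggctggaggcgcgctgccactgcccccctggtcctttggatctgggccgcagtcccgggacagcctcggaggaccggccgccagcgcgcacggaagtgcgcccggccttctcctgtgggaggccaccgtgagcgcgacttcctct
Lama5: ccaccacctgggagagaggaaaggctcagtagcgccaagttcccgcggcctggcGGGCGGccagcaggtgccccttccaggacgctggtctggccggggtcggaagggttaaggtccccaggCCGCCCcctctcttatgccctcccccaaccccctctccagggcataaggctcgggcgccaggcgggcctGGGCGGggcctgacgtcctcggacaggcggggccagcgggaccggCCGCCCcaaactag
Tnc: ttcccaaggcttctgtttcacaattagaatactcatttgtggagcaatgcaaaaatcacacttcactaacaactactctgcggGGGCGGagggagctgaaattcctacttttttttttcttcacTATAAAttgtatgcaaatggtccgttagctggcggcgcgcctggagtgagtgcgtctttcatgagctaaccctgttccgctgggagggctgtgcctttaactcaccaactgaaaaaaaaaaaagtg

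Over whole windows of 300 bases, the GC box was in 35.9% of 32544 RefSeq promoters and in 21 of the 40 member windows. The Lama5 window held 4 of them and the Nid1 window 1, and the Nid1 window also held 1 TEAD match and 1 TATA-like match. The GC box of the Itgav window and the TATA-like match of the Nid1 window lie past the printed stretches. TEAD letters were in 14.6% of all promoters and 5 member windows, AP-1 letters in 7.79% and 3, and TATA-like letters in 24.8% and 10. No matches of different motifs overlapped in the member windows (0 overlaps). Of the 24 windows of 18 genes lower in FS than in AF, 17 held a GC box, as did 1 of 8 windows of members tested and not called. Windows of the same gene can overlap: those of Dag1 and those of Tnc share GC boxes, which were counted in each window. Median GC content was 57.7% over the member windows and 53% over all. These are letter matches, not bound sites.

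In culture, the genes as a group were highest in EpiSCs in AF medium and lower in FS cells and in EpiSCs in AFX medium. Their summed level was 3788 ± 644 CPM in AF (SD, n = 3), 2136 ± 84.1 in AFX (n = 3) and 2170 ± 312 in FS (n = 6). All 6 FS values (1857 to 2749) and all 3 AFX values lay below the lowest AF value of 3320.4. Of the 39 members that passed the filter on low counts, 25 were lower in FS than in AF and 0 were higher, at an adjusted p under 0.05 by edgeR's quasi-likelihood test. Some of the 39, such as Postn and Dcn, passed the filter through AF alone and could only come out lower in FS. Among all 16052 genes tested, 19.5% were called in that comparison, with 10.6% lower and 8.86% higher in FS. Members had a median log2 fold change of -0.85 and all genes tested 0.02. Between AFX and AF, 17 of 39 were lower and 0 higher, where 8.73% of all genes were called, 4.42% lower and 4.3% higher; the medians were -0.91 and 0.01. FS and AFX differed in 5 of 39 members (2 higher and 3 lower in FS), against 8.7% of all genes (3.78% higher and 4.92% lower), with medians of 0.09 and 0.00. The 3 comparisons share their AF, AFX or FS libraries.

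**Figure D1:**
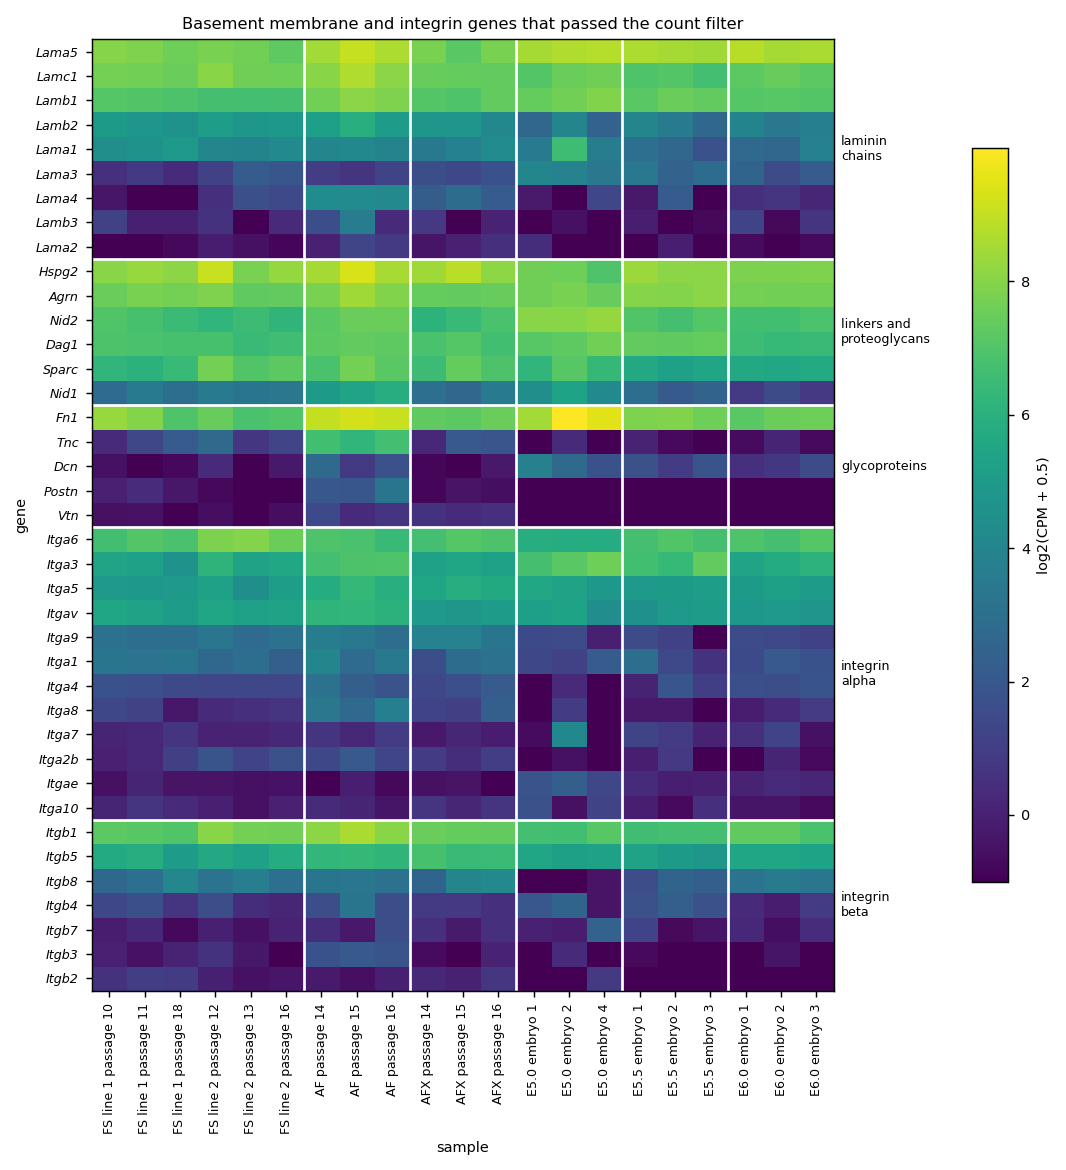
Heat map of the members that passed the filter in any fit (rows, ordered by role) across the 21 libraries (columns); colour gives log2(CPM + 0.5). Brighter is higher. Among the cultured columns, Tnc and Nid1 are brightest in AF (93.02 and 44.01 CPM on average), while Lama5, Lamc1, Itgb1 and Fn1 are high in every column.

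Of the 10 laminin chains tested, 7 were lower in FS than in AF: Lama2, Lama4, Lama5, Lamb1, Lamb2, Lamb3 and Lamc1. Lama5, the alpha chain of the laminins that pluripotent cells make and bind, was at 356, 517 and 403 CPM in AF, 220.4, 146 and 217 in AFX and 152 to 252 (median 209.8) in the 6 FS libraries. No FS or AFX library reached the lowest AF library. Its log2 fold change was -1.05 ± 0.17 (adjusted p = 0.000505) for FS against AF and -1.13 ± 0.20 (adjusted p = 0.00354) for AFX against AF (log2 fold changes carry ± SE throughout). Lamb1, a beta chain of most basement membrane laminins, was at 203, 274 and 236 CPM in AF, 133, 124 and 165 in AFX and 105 to 138 (median 113) in FS, again without overlap with AF. The corresponding changes were -1.03 ± 0.13 (adjusted p = 6.98e-05) and -0.76 ± 0.15 (adjusted p = 0.00684). Lamc1, the gamma chain shared by most laminins, was at 260.4, 416 and 268 CPM in AF, 171, 169.6 and 162 in AFX and 178 to 262 (median 200.01) in FS; FS line 2 passage 12 lay within the AF range. It changed by -0.62 ± 0.14 (adjusted p = 0.00715) in FS and by -0.91 ± 0.17 (adjusted p = 0.00507) in AFX.

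Lama4, an alpha chain known from vessels and mesenchyme, was at 19.6, 19.4 and 17.5 CPM in AF, 4.29, 6.999 and 4.07 in AFX and 0 to 2.74 (median 0.591) in FS. The 3 groups did not overlap. The FS to AF difference was -4.17 ± 0.72 (adjusted p = 0.00183), and that between AFX and AF did not pass the test at -1.89 ± 0.83 (adjusted p = 0.205); it was called when those 2 groups were fitted alone, -1.90 (adjusted p = 0.00415). FS against AFX gave -2.28 ± 0.75 (adjusted p = 0.0864), and it was called with FS line 1 alone, -5.54 (adjusted p = 8.35e-05), and with line 2 alone, -1.42 (adjusted p = 0.0409). The fall from AF was -7.44 with line 1 alone and -3.31 with line 2 alone. Lamb2, another beta chain, was at 36.6, 59.4 and 32.5 CPM in AF, 27.8, 26.9 and 17.2 in AFX and 23.7 to 34.7 (median 28.3) in FS. AFX against AF gave -0.84 ± 0.23 (adjusted p = 0.0321), a call lost in 5 of 12 alternatives, among them leaving out AF passage 15, at -0.53 (adjusted p = 0.147). FS against AF gave -0.58 ± 0.19 (adjusted p = 0.0467), a call lost with either FS line alone and without AF passage 14. It was also lost without any 1 of FS passages 10, 11, 13, 16 and 18. Without AF passage 15 it was -0.27 (adjusted p = 0.341). The epithelial chain Lamb3 also lost its call without that library, at -1.14 (adjusted p = 0.433), and in 9 of 16 alternatives in all. Lama2 was at 1.24 CPM on average in AF and 0.125 in FS. Lama1, the alpha chain of the earliest embryonic laminin, was at 15.8, 16.9 and 14.6 CPM in AF, 10.5, 13.7 and 19.3 in AFX and 15.1 to 29.1 (median 19.5) in FS, and passed no test between these groups with both FS lines. With FS line 1 alone it was higher than in AF, 0.66 (adjusted p = 0.0426). Lama3 did not pass either, and Lamc3 was below the filter, with 1 to 14 counts in each FS library and 0 in every AF library. With no filter it was called higher in FS (adjusted p = 0.0423 by edgeR).

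Among the linkers and proteoglycans, both nidogens, which bridge laminin and collagen IV, were lower in FS than in AF. Nid1 was at 31.7, 42.4 and 57.98 CPM in AF, 7.65, 5.62 and 11.5 in AFX and 6.65 to 11.4 (median 9.37) in FS, so every AF library lay above every other cultured library. The changes from AF were -2.27 ± 0.23 (adjusted p = 1.15e-05) in FS and -2.41 ± 0.29 (adjusted p = 0.000315) in AFX. Nid2 was at 145, 178 and 184 CPM in AF, 68.96, 83.7 and 113 in AFX and 71.996 to 128 (median 91.6) in FS, with -0.85 ± 0.19 (adjusted p = 0.00536) in FS and -0.94 ± 0.22 (adjusted p = 0.0176) in AFX. The AFX call was lost when any 1 of AF passages 15 and 16 or AFX passages 14 and 15 was left out, with log2 fold changes no weaker than -0.79 and adjusted p up to 0.0746. Nid2 exons overlap the antisense gene Rtraf over 8.45% of their length, and the counting is not stated to use strand. Dag1, which encodes dystroglycan, was at 150.1, 163 and 151 CPM in AF, 115, 138 and 101 in AFX and 86.4 to 119.6 (median 109.6) in FS. It was called in FS, -0.55 ± 0.12 (adjusted p = 0.00405), and not in AFX, -0.39 ± 0.14 (adjusted p = 0.0985). Agrn, which encodes the heparan sulphate proteoglycan agrin, was at 221, 348 and 238 CPM in AF, 169, 162 and 174 in AFX and 159 to 234 (median 195) in FS. Its change in FS was -0.48 ± 0.15 (adjusted p = 0.0332), and -0.25 (adjusted p = 0.208) without AF passage 15. That call was also lost with FS line 1 alone, with FS and AF fitted alone, and without FS passage 10, 13 or 16. In AFX the Agrn change was -0.68 ± 0.18 (adjusted p = 0.0254), and -0.46 (adjusted p = 0.0884) without AF passage 15. The AFX call was also lost without AFX passage 14, 15 or 16.

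Hspg2, the gene of the proteoglycan perlecan, was at 369, 641 and 378 CPM in AF, 343, 457 and 278 in AFX and 219 to 532 (median 289.5) in FS, where passage 12 of line 2 was the highest. Its FS to AF difference of -0.55 ± 0.26 (adjusted p = 0.169) did not pass; without that FS library it was -0.76 (adjusted p = 0.0183). Sparc, a collagen-binding matricellular protein, was at 113, 207 and 143 CPM in AF, 91.5, 169 and 121 in AFX and 65.8 to 207 (median 105) in FS, and the groups overlapped (-0.40 ± 0.35, adjusted p = 0.471). With FS line 1 alone it was called lower than in AF, -1.04 (adjusted p = 0.0145 by edgeR).

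Of the adhesive and matricellular glycoproteins, all 5 that could be tested were lower in FS than in AF, and 4 of them, all but Vtn, in AFX. Postn and Dcn reached the count filter through AF alone, and Vtn through AF and AFX. For these genes, only a fall in FS could be found, and for Postn and Dcn also only a fall in AFX. Fn1, which encodes fibronectin, was at 499, 619 and 531 CPM in AF, 156, 147 and 177 in AFX and 113 to 318 (median 149) in FS, without overlap between AF and the others. It changed by -1.59 ± 0.29 (adjusted p = 0.00233) in FS and by -1.78 ± 0.36 (adjusted p = 0.0101) in AFX. Tnc, which encodes tenascin-C, a glycoprotein known to counter adhesion to fibronectin, was at 100.4, 75.2 and 103 CPM in AF, 0.671, 3.75 and 3.24 in AFX and 0.794 to 6.43 (median 1.97) in FS. Its log2 fold change was -5.07 ± 0.52 (adjusted p = 6.92e-05) in FS and -5.26 ± 0.70 (adjusted p = 0.00153) in AFX. The others were low. Postn averaged 5.36 CPM in AF, Dcn 3.55 and Vtn 1.37, with FS means of 0.288, 0.224 and 0.128 CPM. Postn encodes periostin, Dcn the proteoglycan decorin and Vtn vitronectin. Their log2 fold changes in FS were -4.32, -3.81 and -3.31, and at these counts the size moved with single libraries. Dcn was -3.04 without AF passage 14 and -4.51 without FS passage 12. Postn was -3.65 without AF passage 16, -4.93 without FS passage 11, -3.31 with line 1 alone and -7.22 with line 2 alone. Lum, which encodes lumican, did not pass the filter.

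Markers of other cell types moved with the fall from AF. Of 11 fibroblast markers, as feeder cells would carry, 8 were lower in FS than in AF and 7 lower with 1 higher (Thy1) in AFX; their summed level was 272 to 359 CPM in AF, 41.3 to 78.8 in FS and 56.6 to 89.8 in AFX. The collagen gene Col1a1 averaged 92.6 CPM in AF and 16.6 in FS, and Col3a1 78.3 and 0.488. The 8 primitive streak markers summed to 359 to 842 CPM in AF, 32.1 to 114 in FS and 72.8 to 208 in AFX; 6 of the 7 tested were lower than in AF in FS and 1 (Mixl1) in AFX. The 12 visceral endoderm markers summed to 63.9 to 97.5 CPM in AF, 7.98 to 12.99 in FS and 13.6 to 28.01 in AFX, with all 5 that were tested lower in FS, 3 of the 5 lower in AFX, and Afp at 0 in every cultured library. Of the 5, Gata4, Gata6 and Sox17 reached the count filter through AF alone, so only a fall could be found for them. Amn, Cubn, Ttr and Hnf4a were below the filter, with AF means of 0.0911, 0.366, 0.0411 and 0.493 CPM. Counts on mitochondrial genes were 5.59 to 5.78% of a library in AF, 4.26 to 5.28% in FS and 5.14 to 5.73% in AFX. The part of these in the members' differences was not tested. In these bulk samples, fewer cells of a type and less RNA per cell cannot be told apart.

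Of 11 integrin alpha chains tested, Itga3, Itga4, Itga5, Itga8 and Itgav were lower in FS than in AF. Itga3, the alpha chain of a laminin receptor, was at 104, 122 and 125 CPM in AF, 39.04, 45.2 and 38.6 in AFX and 23.8 to 71.3 (median 41.01) in FS. AF did not overlap either. The changes from AF were -1.43 ± 0.22 (adjusted p = 0.000599) in FS and -1.52 ± 0.27 (adjusted p = 0.00475) in AFX. Itgav pairs with several beta chains into receptors of vitronectin and fibronectin. It was at 72.3, 75.2 and 67.2 CPM in AF, 30.1, 27.6 and 32.2 in AFX and 33.1 to 44.7 (median 39.5) in FS, with -0.86 ± 0.11 (adjusted p = 7.79e-05) in FS and -1.26 ± 0.13 (adjusted p = 0.000115) in AFX. Its difference between FS and AFX, 0.40 ± 0.11 (adjusted p = 0.0402), was lost in 11 of 16 alternatives, among them leaving out AFX passage 15, at 0.35 (adjusted p = 0.184). Itga5, the alpha chain of the classical fibronectin receptor, separated FS from both EpiSC groups: 55.1, 78.4 and 61.1 CPM in AF, 43.9, 56.9 and 50.4 in AFX and 22.04 to 39.2 (median 29.7) in FS. FS differed from AF by -1.10 ± 0.16 (adjusted p = 0.000234) and from AFX by -0.73 ± 0.16 (adjusted p = 0.00963), the latter being -0.63 (adjusted p = 0.068) without AFX passage 15. AFX and AF did not differ at the threshold, -0.37 ± 0.19 (adjusted p = 0.265).

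Itga6, the alpha chain of the main laminin receptors of pluripotent cells, was not lower in FS. It was at 124, 113 and 86.2 CPM in AF, 105, 136 and 123 in AFX and 102 to 246 (median 158) in FS, and the 3 groups overlapped. FS against AF gave 0.63 ± 0.26 (adjusted p = 0.117). With FS line 2 alone the difference was 1.00 (adjusted p = 0.000433), and without FS passage 10 0.73 (adjusted p = 0.043). Itga8, a receptor chain for nephronectin and fibronectin, averaged 9.52 CPM in AF and 1.16 in FS, and Itga4, a chain that binds fibronectin, 5.28 and 2.34. The Itga4 difference was -0.70 (adjusted p = 0.196) without AF passage 14, and its call was also lost with FS line 1 alone.

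Among the beta chains, Itgb1, the partner of most laminin and fibronectin receptors, was at 271, 382 and 266 CPM in AF, 176, 166 and 162 in AFX and 128 to 265 (median 173) in FS. Its change in FS was -0.77 ± 0.19 (adjusted p = 0.0128), and -0.57 (adjusted p = 0.0929) without AF passage 15. In AFX it was -0.87 ± 0.23 (adjusted p = 0.0312), and -0.68 (adjusted p = 0.137) without that library. The AFX call was also lost with no low-count filter and without AFX passage 14, 15 or 16. Itgb5, a partner of the alpha v chain, was highest in AFX: 77.6, 79.1 and 71.8 CPM in AF, 111, 86.5 and 90.7 in AFX and 32.6 to 56.7 (median 50.8) in FS. It was lower in FS than in AF (-0.69 ± 0.16, adjusted p = 0.00578) and lower in FS than in AFX (-1.03 ± 0.15, adjusted p = 0.000672), and AFX against AF missed the threshold (0.34 ± 0.18, adjusted p = 0.31) although their CPM did not overlap. This FS to AFX difference held in all 16 alternatives, unlike the other 4 calls of that comparison, among them Itga5, Itgav and Vtn, the last at -2.72 (adjusted p = 0.0182). Itgb3, the beta chain of a vitronectin receptor, averaged 3.27 CPM in AF and 0.444 in FS, and Itgb4, the hemidesmosome chain, 4.75 and 1.66. The Itgb4 difference was -0.67 (adjusted p = 0.423) without AF passage 15, and its call was lost in 8 of 16 alternatives. Itgb8, which activates latent transforming growth factor beta together with the alpha v chain, was at 9.03 CPM in AF, 12.9 in AFX and 9.81 in FS on average and passed no test.

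**Figure D2:**
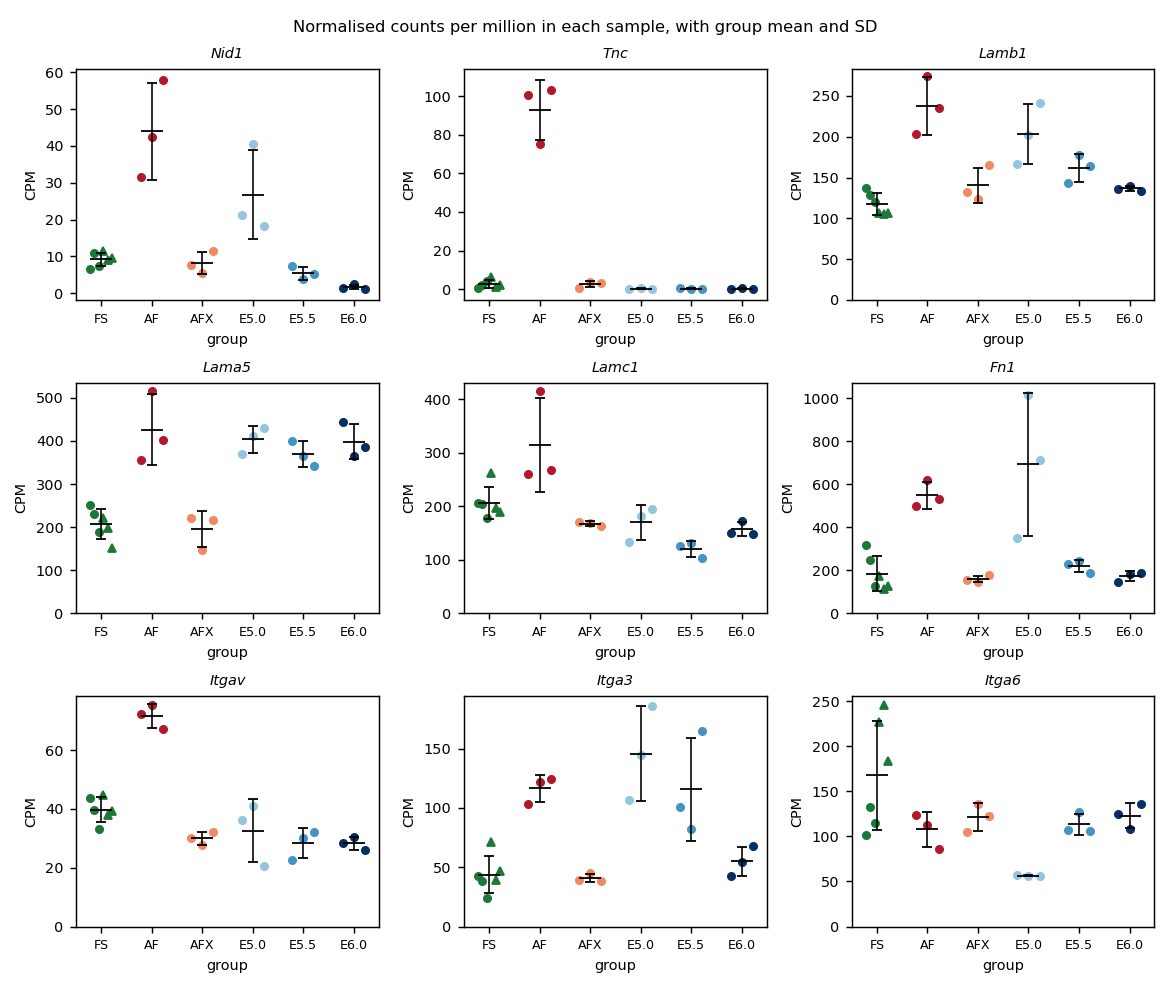
CPM by group for 9 members, 1 panel a gene, with each library as a point (FS line 1 circles, FS line 2 triangles), the mean and the SD. AF lies apart at the top among cultured groups for Nid1, Tnc, Lama5, Fn1 and Itga3, while the FS points for Itga6 split by line, 102, 132 and 115 CPM in line 1 and 227, 246 and 184 in line 2.

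The 14 members tested and not called between FS and AF had log2 fold changes from -1.63 (Itgb7) to 1.23 (Itgb2). Of the 25 calls between FS and AF, 19 held in every alternative in which the gene was tested. The 6 others were Agrn, Itga4, Itgb1, Itgb4, Lamb2 and Lamb3. Without AF passage 15, 20 members were called, 19 of them among the 25. Without both AF passage 15 and FS line 2 passage 12, 20 of 37 were called. Of the 17 calls between AFX and AF, 9 held in every alternative: Fn1, Itga3, Itgav, Lama5, Lamb1, Lamc1, Nid1, Postn and Tnc. The whole count was 10 without AFX passage 14, 10 without AFX passage 15 and 12 without AF passage 15, where the share of all genes called also fell, to 5.59%, 4.4% and 6.87%. CPM did not overlap between groups for 20 members in FS against AF (21.2% of all genes), 25 in AFX against AF (26.7%) and 7 in FS against AFX (15.1%). A gene that misses the threshold between FS and AFX is not shown to be equal there: the log2 differences were 0.14 ± 0.25 for Nid1, 0.19 ± 0.63 for Tnc, 0.19 ± 0.30 for Fn1 and 0.08 ± 0.17 for Lama5.

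**Figure D3:**
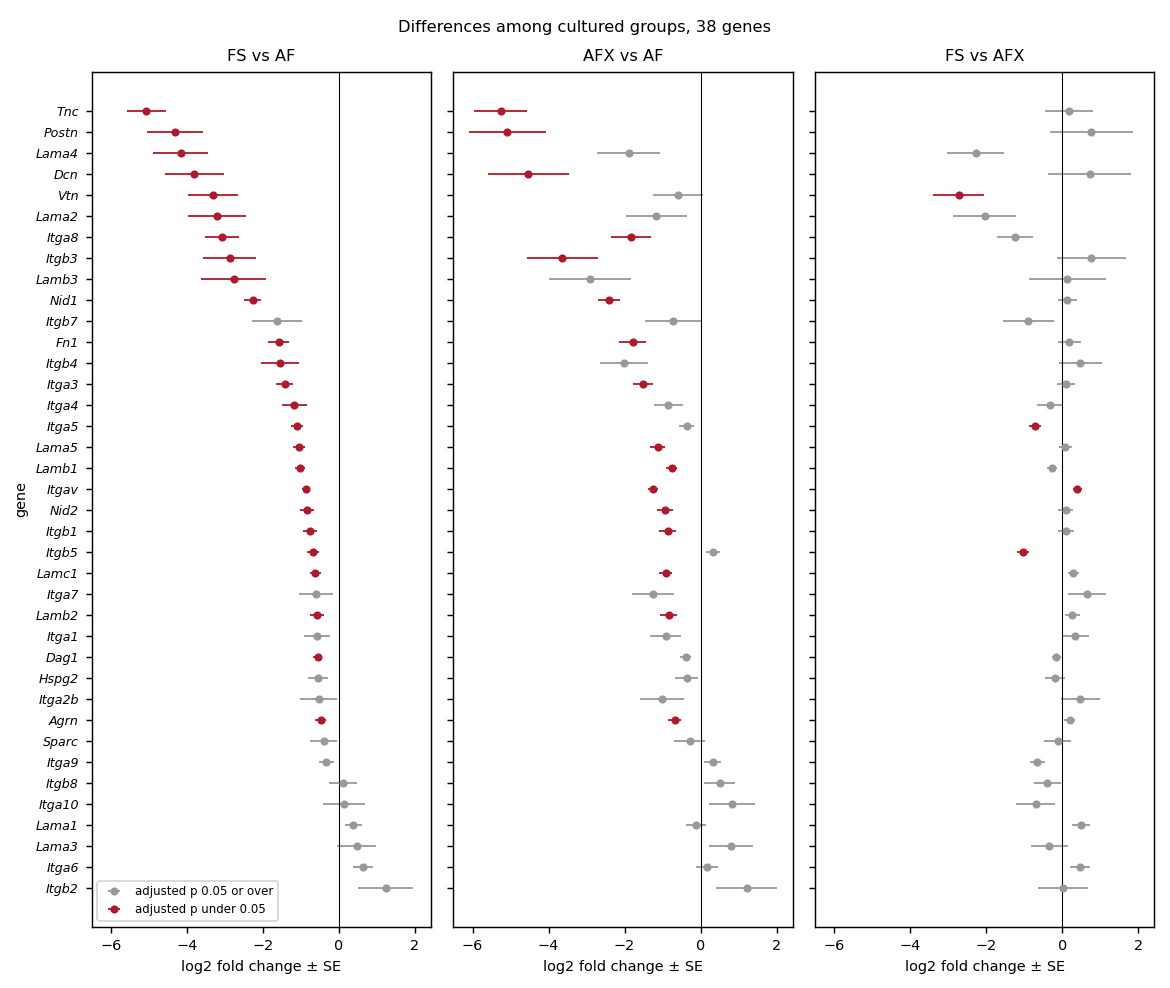
Log2 fold change ± SE (x axes) of 38 members tested (y axis) in FS against AF, AFX against AF and FS against AFX, with red points at an adjusted p under 0.05. The red points of the left and middle panels lie below 0 (25 and 16 genes), and of the 4 in the right panel Itgav lies above 0.

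Within each chain family, the composition of transcripts was compared. It is given as a share of CPM per kilobase of exon, so that genes of unlike length can be set side by side, with no test. Lama5 made up 88.1% ± 2.87 of laminin alpha chain transcripts in FS (SD, n = 6), 91.5% ± 1.29 in AF, 88.3% ± 3.39 in AFX, 87.6% ± 9.71 in E5.0, 96.01% ± 0.859 in E5.5 and 96.4% ± 1.31 in E6.0 epiblasts (n = 3 each). Lamb2 took 28.5% ± 3.79 of beta chains in FS, 21.9% ± 3.35 in AF and 21.9% ± 6.45 in AFX, and 6.49% ± 4.01, 10.1% ± 4.94 and 12.9% ± 2.24 along the epiblast stages; Lamb1 held nearly all of the rest. Among integrin alpha chains, Itga6 was 47.2% ± 8.44 in FS, 21.04% ± 3.71 in AF and 36.5% ± 1.22 in AFX, and 13.9% ± 1.598, 29.9% ± 6.68 and 40.3% ± 3.93 at E5.0, E5.5 and E6.0. Itga3 stood the other way round, at 19.6% ± 3.902 in FS, 36.1% ± 3.72 in AF and 19.6% ± 1.13 in AFX, and 56.1% ± 11.03, 46.1% ± 9.75 and 28.2% ± 4.06 in the epiblasts. Both chains form laminin receptors with beta1. Itgb1 was 74.1% ± 5.85 of beta chains in FS, 75.4% ± 2.93 in AF and 58.8% ± 1.997 in AFX, and Itgb5 23.03% ± 5.44, 21.96% ± 2.85 and 38.5% ± 2.68.

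**Figure D4:**
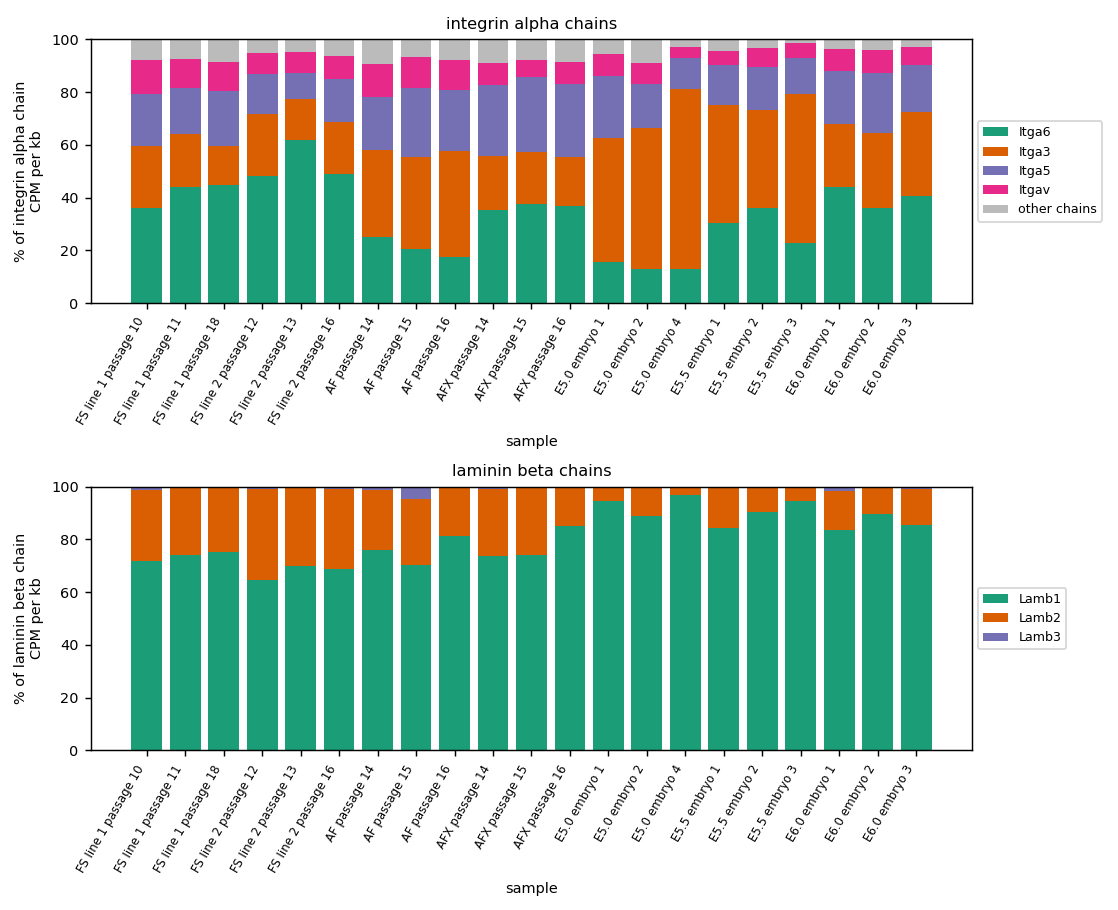
Stacked share (%) of CPM per kilobase held by each integrin alpha chain (top) and laminin beta chain (bottom) in each of the 21 libraries. Itga6 grows from 13.9% of alpha chains at E5.0 to 40.3% at E6.0 and holds 47.2% in FS; Lamb2 is larger in every FS library than in any epiblast.

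The 2 FS lines differed in 6 of 39 members (5 higher and 1 lower in line 2), against 3.85% of all genes (2.65% higher and 1.2% lower in line 2). Itga6 was at 102, 132 and 115 CPM in line 1 and 227, 246 and 184 in line 2, without overlap (0.89 ± 0.16, adjusted p = 0.0044). Its partner Itgb1 was at 149, 142 and 128 CPM in line 1 and 265, 207 and 198 in line 2 (0.66 ± 0.15, adjusted p = 0.0196), and 0.52 (adjusted p = 0.105) without passage 12. The Itgb1 call was also lost without passage 11 or 18. Sparc was at 75.3, 65.8 and 83.8 CPM in line 1 and 207, 127 and 147 in line 2 (1.08 ± 0.26, adjusted p = 0.0363), and 1.01 (adjusted p = 0.147) without passage 11. The Sparc call was also lost without passage 10, 12, 16 or 18. At low counts, Lama4 had 3 counts in line 1 and 75 in line 2, a pooled ratio of 19.5 (exact 95% interval 6.42 to 96.7, counting error only), and an adjusted p of 0.00432. Its fitted log2 difference of 4.13 was 7.44 without passage 10. Postn had 16 in line 1 and 1 in line 2, a ratio of line 1 to line 2 of 20.5 (3.19 to 859.98) that lost its call whenever any of the 6 libraries was left out. Lama3 was higher in line 2 (1.64 ± 0.43, adjusted p = 0.049), lost in 5 of 6. The calls for Itga6 and Lama4 held in every alternative run. The passages sampled also differ between the lines.

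In the epiblast, from E5.0 to E6.0, nidogens, fibronectin, dystroglycan and Itga3 fell while Itga6 and Itgb8 rose. Of 28 members tested, 13 differed between E6.0 and E5.0 (3 higher, 10 lower), against 21.8% of all 14228 genes (10.2% higher and 11.6% lower). Between E5.5 and E5.0, 8 differed (4 higher, 4 lower), against 6.82% of all genes (3.07% higher and 3.75% lower), and between E6.0 and E5.5, 2 were lower and 0 higher, against 4.43% (1.89% higher and 2.54% lower). These comparisons share embryos. CPM did not overlap for 11 members between E5.5 and E5.0 (24.1% of all genes), 11 between E6.0 and E5.5 (30.7%) and 14 between E6.0 and E5.0 (38.8%). Nid2 was at 261, 260.2 and 308 CPM in the E5.0 embryos, 129, 109 and 136 at E5.5 and 100.5, 102 and 119 at E6.0. E5.0 did not overlap the later stages, and the change to E6.0 was -1.39 ± 0.12 (adjusted p = 4.83e-06). Nid1 was at 21.4, 40.6 and 18.3 CPM, then 7.34, 3.78 and 5.22, then 1.31, 2.42 and 1.28, a change of -3.98 ± 0.43 (adjusted p = 2.85e-05) to E6.0. Its step from E5.5 to E6.0 alone, -1.68 ± 0.42 (adjusted p = 0.0369), was lost in 5 of 12 alternatives. Sparc was at 75.4, 142 and 78.3 CPM at E5.0, 49.4, 38.2 and 43.2 at E5.5 and 49.2, 47.3 and 52.4 at E6.0, with -1.19 ± 0.22 (adjusted p = 0.00743) to E5.5. Dag1 fell between E5.5 and E6.0: 142, 156 and 202 CPM, then 164, 156 and 166, then 94.4, 81.4 and 86.7, with -0.90 ± 0.13 (adjusted p = 0.00127) from E5.5 to E6.0.

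Fn1 was at 352, 1018 and 712 CPM at E5.0, 229.9, 241 and 188 at E5.5 and 146, 184 and 188 at E6.0. The wide E5.0 spread includes embryo 2, the highest. Its change to E6.0 was -2.03 ± 0.36 (adjusted p = 0.00766), called also with any 1 embryo left out. With embryo number as a block, that change lost its call, at -1.86 (adjusted p = 0.0529 by edgeR). The Fn1 step to E5.5 alone, -1.67 ± 0.36 (adjusted p = 0.0381), was lost in 7 of 12 alternatives. Itga3 was at 107, 145 and 186 CPM at E5.0, 100.4, 82.1 and 165 at E5.5 and 42.9, 54.1 and 67.6 at E6.0 (-1.43 ± 0.30, adjusted p = 0.00974 to E6.0). Itga6 was at 56.7, 56.1 and 55.6 CPM, then 108, 127 and 106, then 125, 108 and 136, and rose by 1.00 ± 0.12 to E5.5 (adjusted p = 0.000746) without overlap. Itgb8 had 2 counts in all E5.0 embryos, 117 at E5.5 and 281 at E6.0. The pooled ratio to E5.0 was 44.4 at E5.5 (exact 95% interval 12.03 to 371) and 106 at E6.0 (29.0 to 877). The fitted log2 difference at E5.5, 5.27, was 8.18 without E5.0 embryo 4, and that at E6.0 was then 9.41. Hspg2 was at 197, 187 and 126 CPM at E5.0, 328, 273 and 274 at E5.5 and 229, 223 and 236 at E6.0. It was higher at E5.5 than at E5.0 (0.77 ± 0.15, adjusted p = 0.00855). Agrn was at 192, 221 and 175 CPM at E5.0, 258, 245 and 269 at E5.5 and 209, 202 and 199 at E6.0, and its rise to E5.5 (0.38 ± 0.10, adjusted p = 0.0418) was lost in 7 of 12 alternatives.

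Of 7 laminin chains tested, 2 fell between E5.0 and E6.0, Lamb1 and Lama3, where 11.6% of all genes were lower. Lama5 was at 369, 413 and 429 CPM at E5.0, 401, 366 and 343 at E5.5 and 444, 364 and 387 at E6.0, with -0.04 ± 0.10 (adjusted p = 0.848) from E5.0 to E6.0. Lamb1 fell from 167, 202 and 241 CPM to 136, 139.6 and 134 (-0.59 ± 0.13, adjusted p = 0.00526), through 144, 178 and 165 at E5.5. Lamc1 was at 132, 182 and 195 CPM at E5.0, 126, 132 and 104 at E5.5 and 150.1, 172 and 149 at E6.0, and its step to E5.5 missed the threshold (-0.51 ± 0.15, adjusted p = 0.0535). That step was called in some alternatives. Among them were no low-count filter, -0.49 (adjusted p = 0.00449 by edgeR), and leaving out E5.0 embryo 1, -0.65 (adjusted p = 0.0113 by edgeR). Lama3, an epithelial alpha chain, was at 16.1, 14.1 and 9.71 CPM at E5.0 and 5.25, 2.34 and 4.05 at E6.0 (-1.81 ± 0.40, adjusted p = 0.0054). Itgb1 was at 104, 100.1 and 141 CPM at E5.0, 96.7, 103 and 106 at E5.5 and 158, 159.9 and 113 at E6.0, and was not called (0.30 ± 0.15, adjusted p = 0.185 to E6.0). It was called higher at E6.0 without E5.0 embryo 4, 0.49 (adjusted p = 0.0348 by edgeR). With embryo number as a block it was also called, 0.53 (adjusted p = 0.0379 by edgeR). The remaining calls to E6.0 were Dcn, Itga4 and Itgae, each lost in 3 to 7 of 11 alternatives. Dcn fell by 2.31 on the log2 scale; its change was -1.58 (adjusted p = 0.11) without E5.0 embryo 1. Visceral endoderm markers fell along the same stages: 769, 945 and 327 CPM summed in the E5.0 embryos, 53.3 to 90.8 at E5.5 and 30.2 to 34.7 at E6.0, with 9 of 10 tested lower at E6.0 than at E5.0 and 8 of 10 lower at E5.5. Cubn averaged 376 CPM at E5.0 and 1.31 at E6.0. The 5 parietal endoderm markers summed to 16.1 to 26.7 CPM at E5.0 and 0.532 to 0.952 at E6.0. Extraembryonic ectoderm markers were highest in embryo 2 of E5.0, with the defining gene Elf5 at 7.85 CPM there, 0.621 in embryo 1 and 0 in embryo 4. Of the 3 E5.0 embryos, embryo 2 also had the most Fn1, Lama1 and Itga7 (17.3 CPM). Counts on mitochondrial genes were 8.15 to 8.95% of a library at E5.0, 6.31 to 7.29% at E5.5 and 7.03 to 7.36% at E6.0, so E5.0 did not overlap the later stages. The part of these in the members' changes was not tested.

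**Figure D5:**
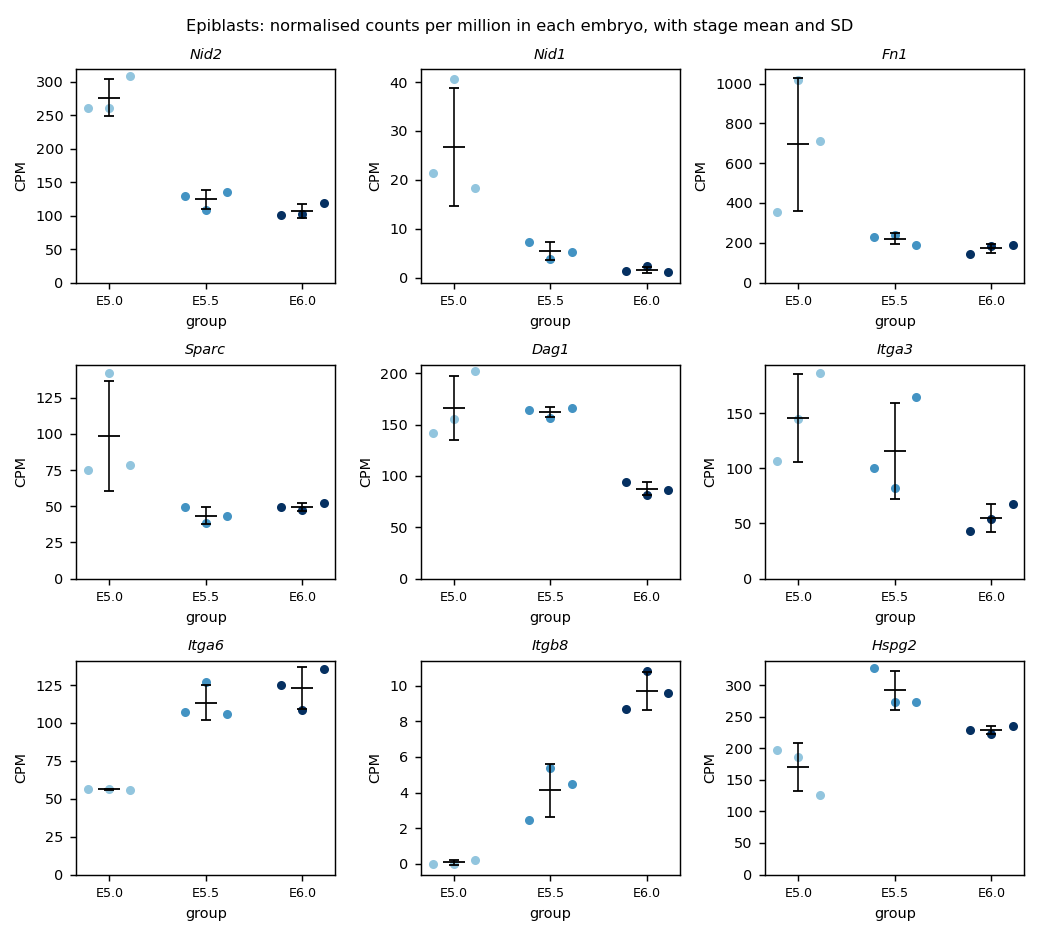
CPM of 9 members in each epiblast, by stage (x axis), 1 panel a gene. Nid2, Nid1 and Sparc are highest at E5.0 in every embryo, Dag1 drops at E6.0, and Itga6 and Itgb8 are lowest at E5.0.

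FS cells were set beside E5.5 epiblasts and EpiSCs in AF beside E6.0 epiblasts, in a fit over all 21 samples. These comparisons also set culture against embryo. FS cells and E5.5 epiblasts differed in 23 of 39 members (15 higher, 8 lower in FS), against 43.8% of all 16614 genes tested (23% higher and 20.8% lower). The members' median log2 fold change was 0.54 (0.49 with genes at 0 counts set to their bound), and that of all genes 0.08. Lama5 was lower in FS (-0.84 ± 0.14, adjusted p = 6.14e-05), as were Itga3 (-1.40 ± 0.25, adjusted p = 0.000217), Dag1 (-0.61 ± 0.12, adjusted p = 0.00021) and Lamb1 (-0.47 ± 0.12, adjusted p = 0.00424). Agrn was at a log2 change of -0.41 (adjusted p = 0.0132), and Nid2, at -0.40, lost its call in 12 of 16 alternatives. With FS line 1 alone, Lamb1 lost its call at -0.33 (adjusted p = 0.0537) and Agrn at -0.35 (adjusted p = 0.0672); without E5.5 embryo 3, Agrn was -0.37 (adjusted p = 0.0598). Higher in FS were Lamc1 (0.77 ± 0.15, adjusted p = 0.00027), Lamb2 (1.38 ± 0.32, adjusted p = 0.00169), Itgb1 (0.83 ± 0.19, adjusted p = 0.00164), Sparc (1.44 ± 0.35, adjusted p = 0.00329), Itgb5 (0.53 ± 0.16, adjusted p = 0.00762) and Lama1 (1.94 ± 0.60, adjusted p = 0.0144). Lamb2 was at 16.04, 11.6 and 5.88 CPM and Itgb5 at 39.4, 31.5 and 27.5 in the E5.5 embryos; Lama1 was at 7.57, 5.73 and 2.89 CPM. Without E5.5 embryo 3, Itgb5 lost its call at 0.43 (adjusted p = 0.0634) and Lama1 at 1.63 (adjusted p = 0.0764); Lama1 was 1.61 (adjusted p = 0.0583) with FS line 2 alone. Of the 23 calls, 13 held in every alternative. The Sparc difference was 0.78 with FS line 1 alone. Itga6 was 0.56 ± 0.22 (adjusted p = 0.0435) with both lines and 0.04 (adjusted p = 0.869) with line 1 alone. Itgb2 had 0 counts in the E5.5 embryos and was at 0.992, 1.53 and 1.38 CPM in FS line 1 and 0.482, 0.211 and 0.284 in line 2, where 3 counts are 0.171 to 0.354 CPM in an FS library. CPM did not overlap between FS and E5.5 for 19 of the 39 members, against 40.9% of all genes. Markers of other cell types moved too. Visceral endoderm markers summed to 7.98 to 12.99 CPM in FS and 53.3 to 90.8 at E5.5, with 9 of 11 tested lower in FS. Fibroblast markers summed to 41.3 to 78.8 and 14.2 to 27.8 CPM, with 5 of 11 higher and 1 lower in FS. Of 8 pluripotent epiblast markers, 1 was higher and 4 were lower in FS. The mitochondrial share of counts was 4.26 to 5.28% in FS and 6.31 to 7.29% at E5.5, without overlap. The part of these was not tested.

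EpiSCs in AF medium differed from E6.0 epiblasts in 27 of 39 members, 26 of them higher in AF, against 35.2% of all genes (18.1% higher and 17.1% lower). The members' median was 1.20 (1.19 with bounds), and that of all genes 0.08. Tnc (8.18 ± 0.95, adjusted p = 5.7e-06) and Nid1 (4.68 ± 0.39, adjusted p = 1.14e-08) were higher in AF. The Tnc difference was 9.48 without E6.0 embryo 2. Itgav (1.34 ± 0.19, adjusted p = 1.26e-05), Dag1 (0.83 ± 0.14, adjusted p = 8.88e-05), Lamc1 (1.00 ± 0.17, adjusted p = 9.69e-05), Lamb1 (0.80 ± 0.15, adjusted p = 0.000222), Itga5 (0.95 ± 0.19, adjusted p = 0.000612) and Itgb1 (1.09 ± 0.22, adjusted p = 0.000613) were also higher. In the E6.0 embryos, Tnc was at 0.131, 0.606 and 0.106 CPM, Itgav at 28.2, 30.4 and 26.1 and Itga5 at 30.99, 37.1 and 32.6. Postn and Vtn had 0 counts at E6.0. In the AF libraries Postn was at 3.45, 3.34 and 9.28 CPM, passage 16 being the highest, and Vtn at 2.22, 0.791 and 1.11. Of the 27 calls, 19 held in every alternative. Lama5 (0.10 ± 0.17, adjusted p = 0.688) and Itga6 (-0.19 ± 0.25, adjusted p = 0.587) were not called. The 1 lower member, Lama3 (-1.39 ± 0.54, adjusted p = 0.0469), lost its call in 6 of 10 alternatives. Fibroblast markers summed to 14.97 to 28.1 CPM at E6.0, against 272 to 359 in AF, with 8 of 11 higher in AF. Primitive streak markers summed to 80.2 to 243 CPM at E6.0 and 359 to 842 in AF, with 2 of 7 higher (Cer1 and Lhx1), and visceral endoderm markers to 30.2 to 34.7 and 63.9 to 97.5 CPM, with 3 of 11 higher (Gata4, Gata6 and Sox17). The median log2 fold change of those 11 was -0.45, and Afp was at 0 in AF, where Amn averaged 0.0911 CPM, Cubn 0.366 and Ttr 0.0411. Of 8 pluripotent epiblast markers, 1 was higher and 5 were lower in AF. The mitochondrial share was 5.59 to 5.78% in AF and 7.03 to 7.36% at E6.0, without overlap. The part of these was not tested. CPM did not overlap between AF and E6.0 for 31 of the 39, against 52.3% of all genes.

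Genes that work with these molecules were counted from 4 lists chosen by function. Of 26 genes tested for adaptors and cytoskeletal linkers inside the cell at integrin sites, 12 were lower in FS than in AF and 0 higher, where 10.6% of all genes were lower. Among them were Zyx (-1.40 ± 0.15, adjusted p = 1.97e-05), Actn1 (-1.34 ± 0.15, adjusted p = 2.88e-05) and Tln1, the talin that activates integrins (-0.94 ± 0.12, adjusted p = 7.94e-05). In FS against AFX 6 of the 26 were lower and 0 higher (4.92% of all genes lower). In AFX against AF 5 were lower (4.42% of all genes) and 1, Ptk2 (focal adhesion kinase, 0.45 ± 0.10, adjusted p = 0.0117), higher. Of 18 partners in the basement membrane, 7 were lower and 0 higher in FS than in AF, among them Col4a2 (-1.50 ± 0.27, adjusted p = 0.00195), Serpinh1, the collagen chaperone (-0.72 ± 0.12, adjusted p = 0.000689), and Egflam (-3.28 ± 0.64, adjusted p = 0.00305). In AFX against AF 3 were lower, with Col4a1 (-1.11 ± 0.30, adjusted p = 0.0368) and Col4a2 (-1.54 ± 0.34, adjusted p = 0.0131), and Fras1 was higher (0.80 ± 0.21, adjusted p = 0.0256). In FS against AFX 2 were lower, Fras1 (-1.20 ± 0.17, adjusted p = 0.000503) and Fbln1 (-1.22 ± 0.18, adjusted p = 0.000588).

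Of 18 other laminin receptors and genes that glycosylate dystroglycan, 1 was higher and 2 lower in FS than in AF, where 19.5% of all genes were called: the syndecan Sdc2 (1.55 ± 0.23, adjusted p = 0.000316), the hyaluronan receptor Cd44 (-1.78 ± 0.22, adjusted p = 6.86e-05) and the utrophin gene Utrn (-0.53 ± 0.15, adjusted p = 0.0213). Of 16 matrix proteases and inhibitors, 7 were lower and 2 higher, with Adamts1, a secreted metalloprotease, at -1.55 ± 0.20 (adjusted p = 8.2e-05). In FS line 2 against line 1, Col4a1 (-0.82 ± 0.19, adjusted p = 0.0282) and Col4a2 (-0.92 ± 0.22, adjusted p = 0.0285) were lower in line 2, where Itga6 was higher. In the epiblast, both were lower at E6.0 than at E5.0, Col4a1 at -1.24 ± 0.25 (adjusted p = 0.00578) and Col4a2 at -1.78 ± 0.32 (adjusted p = 0.00199), with 4 of the 14 partners tested lower and 4 higher, where 21.8% of all genes were called. Of the 26 intracellular genes, 5 were lower, among them Tns3 (-1.51 ± 0.17, adjusted p = 4.29e-05), and 5 higher, among them Dst (0.57 ± 0.12, adjusted p = 0.00333).

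Expression across the family was uneven. Of the 52 rows, 23 had a count in every library, 25 reached a group mean of 10 CPM and 12 one of 100 CPM, and 12 had every group mean under 1 CPM. The 13 rows that failed the filter among the cultured samples were those of Itga2, Itga11, Itgad, Itgae, Itgal, Itgam (2 rows), Itgax, Itgb2l, Itgb6, Itgbl1, Lamc3 and Lum. Of these, Itgad, Itgae, Itgal, Itgam and Itgax are chains of leukocyte integrins, and 1 of the Itgam rows had no count in any library. Per kilobase of exon, Itgb1 was the highest integrin in every group, at 74.96 ± 16.1 CPM per kb in AF, 44.5 ± 12.7 in FS, 41.2 ± 1.66 in AFX and 24.97 ± 1.15 in E5.5 epiblasts. Fn1 was at 47.04 ± 5.34 CPM per kb in AF and 59.4 ± 28.5 in E5.0 epiblasts, where the spread among embryos was wide.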

How the data were processed

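RNA-seq libraries of 12 cultured samples and 9 individual mouse epiblasts were analysed from the deposited table of raw read counts per gene. Per the submitters' processing notes, the authors used Trim Galore, TopHat2 2.1.0 and featureCounts 1.5.0 on mm10; the annotation release and strand setting are not given in the sources used here. From these counts, edgeR 4.0.16 (R 4.3.3) was run on the whole table: filterByExpr, TMM factors, robust quasi-likelihood F-tests, two-sided, Benjamini-Hochberg adjusted p under 0.05 over all genes tested. Cultures, epiblasts and all 21 samples were fitted separately for the comparisons named. Levels are CPM with TMM over all 21 samples; exon lengths and positions are from GENCODE M21 (GRCm38). Group totals of 0 counts were set to a floor of 3 counts per library, and totals of 1 to 3 are given as pooled ratios with exact 95% intervals; intervals and floors cover counting error only. On simulated data with 200 changed genes, 47.9% of 2-fold and 78.4% of 4-fold changes were recovered in FS against AF, and 44.2% and 75.8% in E6.0 against E5.0.

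The members and the gene lists were chosen with earlier results of these data known. Any member could be named. Levels are given for members of at least 100 CPM. They are also given for the 8 of smallest p per direction and comparison with a group mean of at least 10 CPM. These are values in every sample, or for FS mostly a range and median over its 6 libraries. Of other lists, up to 3 genes per direction are named. Alternatives were DESeq2 1.42.0, its size factors, no low-count filter, a 5 CPM mean as the minimum, 2 groups fitted alone, each FS line alone, each library left out and a replicate block; 1 more, leaving out AF passage 15 and FS line 2 passage 12 together, was added after seeing the data. Single results of some genes are not reported here, though counts over a list include them; the heat map, the plot of fold changes and the count of distant values leave them out.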

Additional observations from a re-analysis of the deposited data

Results flagged for a closer look

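In the 6 FS libraries, a test for a single distant value (gap to the nearest other library over the whole range, against a critical value of 0.625) was met by 4 of 39 genes tested; chance gives about 1 in 20. Of these, 2 were high in line 2 passage 12: Hspg2 at 532 CPM (the others 219 to 314) and Lamc1 at 262 CPM (178 to 207). The other 2 were low genes in line 1: Itga7 at 1.14 CPM in passage 18 (0.527 to 0.708) and Itgae at 0.590 CPM in passage 11 (0.198 to 0.244).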

How the results depend on the processing

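No member's called change reversed direction under any alternative run; 213 single-gene values lost the threshold and 1459 did not. In FS against AF, requiring a mean of at least 5 CPM left 15 of 24 tested members called, and leaving out each library gave 20 to 25. FS against AFX gave 8 with FS line 2 alone (13.2% of all genes called) and 2 to 5 with 1 library left out (4.97% to 9.27% of all genes). AFX against AF gave 10 to 14 (4.4% to 6.87%), and the FS lines 2 to 4 (1.9% to 2.87%), with 1 library left out. E6.0 against E5.5 gave 4 with DESeq2 (7.56% of all genes), 4 with no filter (4.15%), 8 with the 2 groups alone (10.7%) and 1 to 2 with 1 library left out (1.59% to 2.5%), against 4.43% with all 3 stages fitted; the cause was not tested. Without TMM, the summed level of members in AFX was 2239 CPM, the summed level of members in E5.5 was 2054 and the summed level of members in E6.0 was 1839 (with it, 2136, 2231 and 2024). Deviations of same-numbered samples had correlations from -0.137 to 0.223, and those of other pairs from -0.296 to 0.332. With so few samples per group, this cannot exclude a shared batch, and the labels do not say that the numbers pair samples. With the replicate block and those 2 groups fitted alone, AFX against AF had 16 calls (15 shared with the 17); the 2 groups alone without the block had 17 (16 shared). With the block, E5.5 against E5.0 had 7, E6.0 against E5.5 3 and E6.0 against E5.0 11, where Fn1 lost its call (-1.86, adjusted p = 0.0529 by edgeR); not every sample correlated best with its own number. Members under about 3 counts per library (0.171 to 0.589 CPM) could not be resolved at this depth.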
